A study of Mus musculus with 8 samples.

Results

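Cultures grown on the ground were used here to compare cells labelled Rad9-/- (R9del) with wild-type cells (R9wt). The rule took the ground columns of the deposited gene count matrix, which are 4 of the 8 libraries of the series, and paired R9del with R9wt on culture day, with 2 libraries a side. The cells are mouse embryonic stem cells (mESCs), and Ground_R9wt and Ground_R9del each have 1 library from a culture of 1 day (D1) and 1 from a culture of 5 days (D5). Per the study's methods, the ground cultures were held in the same kind of closed payload device, without a gas controller, as the cultures sent to space, and were fixed in RNAlater at the end of their day. D1 and D5 devices formed separate groups with a temperature control each. At D1 the same number of cells of each genotype was seeded, and at D5 the R9wt device received fewer cells than the R9del device, so genotype and seeding number cannot be told apart at D5. The labels name 1 library per condition and no replicate cultures. Where culture day is a block, the p-values of the ground fit rest on how the R9del to R9wt ratio differs between D1 and D5, with the spread shared over genes. Tests without the block rest on the spread between D1 and D5 libraries of a genotype. These cultures were in separate devices, so neither spread is technical alone. Neither can be split between culture, day, seeding number and library. Neither the origin of the R9del cells nor the number of clones is given in the labels.

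Rad9a encodes a subunit of the 9-1-1 clamp, a ring that it forms with Hus1 and Rad1. The clamp is loaded onto DNA by the Rad17 complex at stalled forks and resected ends, and it helps Topbp1 to activate the kinase Atr, which signals through Chek1. mESCs replicate fast, have short gap phases and keep pluripotency genes such as Pou5f1, Sox2 and Nanog on. A small share of cells in such cultures passes through a state that resembles the embryo at the cleavage stage, marked by Zscan4 genes.

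Library totals were 65678502 counts in Ground_R9del_D1, 72077524 in Ground_R9del_D5, 91390994 in Ground_R9wt_D1 and 96416907 in Ground_R9wt_D5. Levels are given in CPM, read counts normalised to a common library total with edgeR's TMM factors over the 8 libraries, and they stand for D1 and then D5 within a genotype. A count of 0 allows up to 3 counts, which is between 0.0335 and 0.0449 CPM on the ground, and this floor covers counting error only. All values are of RNA from whole cultures, so fewer cells of a type and less RNA per cell cannot be told apart. Between whole ground libraries, the distance over all genes (a chi-square per degree of freedom on the counts) was smallest for the R9del libraries of D1 and D5, at 114. It was 286 between R9del and R9wt at D1, 563 between them at D5 and 584 between Ground_R9wt_D1 and Ground_R9wt_D5. The R9wt libraries thus lay about as far from each other as R9wt lay from R9del at D5.

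Rad9a (ENSMUSG00000024824; mm9 chr19:4195198-4201603, minus strand, 11 exons) was present at 23.3 and 28.6 CPM in Ground_R9del and at 93.4 and 85.9 CPM in Ground_R9wt. The space libraries held 20.8 and 26.9 CPM in R9del and 89.3 and 70.3 CPM in R9wt. Both R9del libraries lay below both R9wt libraries at each location, and reads remained on the gene in every R9del library. The log2 ratio was -2.0 at D1 and -1.58 at D5. In edgeR's quasi-likelihood test the log2 fold change was -1.79 (standard error 0.27, unadjusted p = 0.000713, Benjamini-Hochberg adjusted p = 0.144), lower in 2 of 2 pairs. DESeq2's Wald test gave -1.77 with an adjusted p of 4.24e-05 and edgeR's exact test -1.79 with an adjusted p of 0.000662. Over the other alternatives of the edgeR quasi-likelihood fit, the Benjamini-Hochberg adjusted p lay between 0.0514 and 0.999. An exact permutation test of 2 libraries against 2 cannot give a two-sided p below 0.333. Of the gene's exon length 10.85% overlaps another gene, and reads from exons that the deletion may have left were not separated.

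All 16610 genes that reached 1 CPM in 1 or more ground libraries were sorted by their R9del to R9wt ratio on each day. At D1, 1664 genes (10%) were at least 2-fold higher in R9del and 1902 (11.5%) at least 2-fold lower. At D5 the counts were 2594 (15.6%) higher and 2483 (14.9%) lower. At both days 865 genes (5.21%) were higher and 887 (5.34%) were lower, while 255 (1.54%) passed in opposite directions, 129 of them higher at D1 and 126 higher at D5. Since Ground_R9wt_D5 is the only control at its day, a gene was called carried by it when that library lay at least 2-fold above, or at least 2-fold below, each of the other 3 ground libraries and those lay within 2-fold of each other. This held for 688 genes above (4.14%) and 908 below (5.47%). The same rule applied to Ground_R9wt_D1 gave 122 genes above (0.734%) and 203 below (1.22%), to Ground_R9del_D1 86 above (0.518%) and 190 below (1.14%), and to Ground_R9del_D5 31 above (0.187%) and 78 below (0.470%). A gene carried by 1 library cannot, by construction, be higher or lower at both days. These classes are folds between single libraries and carry no p. The split depends on the scaling: with library size alone 1044 genes were higher and 699 lower at both days, with DESeq2's size factors 900 and 840, and with TMM over the 4 ground libraries 884 and 854. Without Ground_R9wt_D1 the counts were 2178 higher and 2044 lower, an alternative chosen after seeing the data. No D1 pair is left there, so the rule changed with the library and Ground_R9wt_D5 was the only control. Genes carried by Ground_R9wt_D5 can then enter by construction.

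**Figure D1:**
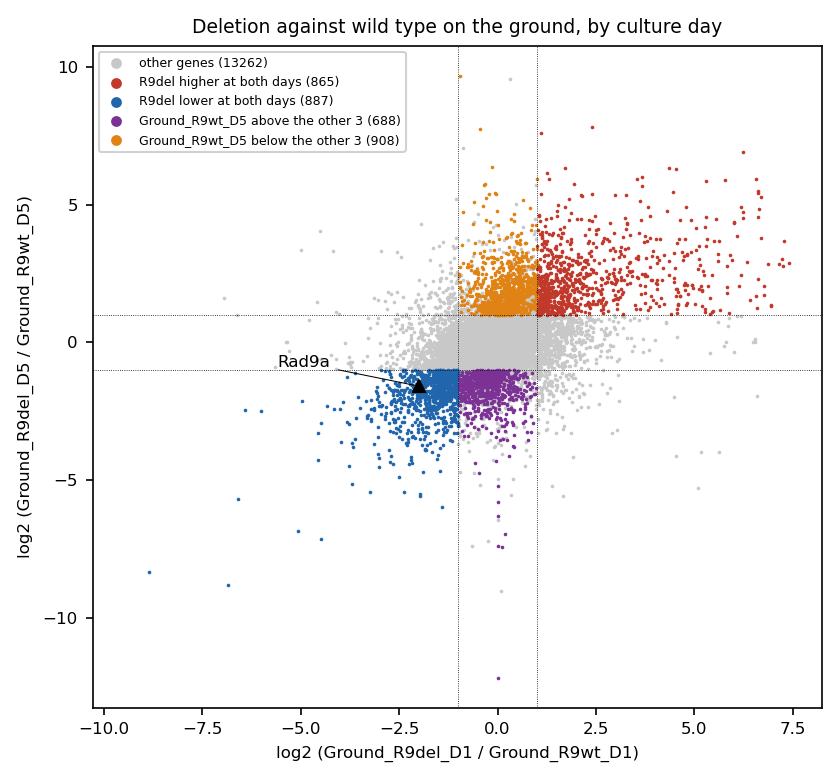
Each point is 1 of 16610 genes, with the log2 ratio of R9del to R9wt at D1 across and at D5 upward, colored by class and with dotted lines at a 2-fold difference. Rad9a (triangle) lies at -2.0 and -1.58. By their rule, the 688 and 908 genes carried by Ground_R9wt_D5 (purple and orange) differ at least 2-fold on the upward axis and less than 2-fold across.

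The genes that passed at D5 divide in 3 parts of like size. Of the 2594 genes higher at D5, 865 (33.3%) were also higher at D1, 908 (35.0%) were carried by Ground_R9wt_D5 lying below the rest, and 821 (31.6%) met neither rule. Of the 2483 lower at D5, 887 (35.7%) were lower at D1 too, 688 (27.7%) were carried by Ground_R9wt_D5 lying above the rest, and 908 (36.6%) met neither. Those that passed at D1 divide otherwise. Of its 1664 higher genes 865 (52.0%) held at D5 and 203 (12.2%) were carried by Ground_R9wt_D1, and of its 1902 lower genes 887 (46.6%) held at D5 and 122 (6.41%) were carried by that library.

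**Figure D2:**
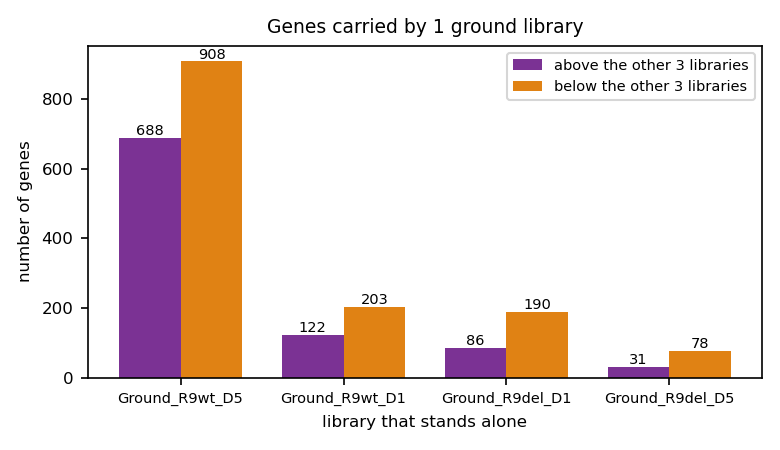
Bars give the number of genes carried by each ground library. That library stands at least 2-fold above (purple) or below (orange) each of the other 3, which lie within 2-fold of each other. Ground_R9wt_D5 has 688 and 908 such genes and Ground_R9del_D5 has 31 and 78.

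edgeR's quasi-likelihood test with culture day as a block, which leaves 1 residual degree of freedom, covered 21333 genes. By the study's own thresholds, a 2-fold difference with an unadjusted p under 0.05, 1392 genes (6.53%) were higher in R9del and 1249 (5.85%) lower. With library size alone in place of TMM the split was 1712 higher and 962 lower, and it turned to 1221 and 1271 with edgeR's exact test and to 991 and 1056 without the block. After Benjamini-Hochberg adjustment 0 genes (0%) passed in edgeR's quasi-likelihood test, where 3553 (16.7%) had an unadjusted p under 0.05 and the smallest adjusted p was 0.128. DESeq2's Wald test passed 834 higher and 643 lower genes and edgeR's exact test 369 higher and 233 lower at an adjusted p under 0.05. A fit without 1 library cannot keep the day block, since no residual degree of freedom would be left. Such fits change library and model together and leave 1 library in a group, so their counts cannot be compared with those above. The log2 fold change of Rad9a was -1.73 without Ground_R9wt_D1 and -1.85 without Ground_R9wt_D5. It was -1.65 without Ground_R9del_D1 and -1.95 without Ground_R9del_D5.

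The genes that are higher at both days were mostly scarce ones, and so were the lower ones. How much of this the fold rule and the 1 CPM filter bring was not tested. The median level of the higher genes over the ground libraries was 2.27 CPM, against 16.3 CPM for all genes tested. Of the 635 higher genes with an annotation 552 (86.9%) code for protein, against 92.9% of all annotated genes. Genes lower at both days had a median of 4.0 CPM, and 94.9% of the annotated ones code for protein. The higher genes together took 3.39% and 2.60% of the reads in R9del and 1.17% and 0.612% in R9wt. The lower genes took 1.04% and 1.42% in R9del and 2.63% and 4.59% in R9wt.

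Among the genes with the largest difference shared by both days was H3c14 (ENSMUSG00000070392; chr3:96049477-96052431, plus strand), a histone H3 gene, at 10.3 and 8.56 CPM in R9del and 0.0814 and 0.112 CPM in R9wt. Its log2 ratios were 6.57 and 5.94. In space H3c14 was at 1.76 and 0.620 CPM in R9del and 0.821 CPM and 0 in R9wt, with a log2 ratio of 1.08 at D1, smaller than on the ground. Other high levels in R9del belonged to Dync1i1, which encodes an intermediate chain of cytoplasmic dynein, at 8.93 and 3.95 CPM against 0.582 and 0.257 CPM. Gpr83, a receptor gene, stood at 9.0 and 4.62 CPM against 0.686 and 0.0447 CPM. In each of these genes the lower R9del library exceeded the higher R9wt library. Lemd1, at 8.57 and 7.16 CPM against 0.814 and 0.458 CPM, was at 1.45 and 0.654 CPM in space R9del and 1.16 and 0.590 CPM in space R9wt. Gm10800 and Gm10801 are neighbours on chromosome 2 that resemble repeats, and Gm13230 is a pseudogene, so the origin of their reads is uncertain. Gm10800 was the most abundant of these 3, at 207 and 144 CPM in R9del and 16.8 and 4.09 CPM in R9wt.

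On the lower side, Nkx1-2 (ENSMUSG00000048528; chr7:139786560-139791320, minus strand), a homeobox gene, was at 0.359 CPM at D1 and 0 at D5 in R9del and at 44.7 and 12.3 CPM in R9wt. At D5 it was at least 300-fold lower against the floor of 3 counts, and in space it stood at 0.142 and 0.0671 CPM in R9del and 8.14 and 9.48 CPM in R9wt. Myl3, a myosin light chain gene, was at 0 and 0.137 CPM in R9del and 0.907 and 18.8 CPM in R9wt, at least 20.2-fold lower at D1. Both genes were under 1 CPM in all R9del libraries of both locations. Ntn1, which encodes the guidance cue netrin, was at 1.67 and 1.09 CPM against 40.5 and 11.0 CPM on the ground. In space Ntn1 was at 1.51 and 84.0 CPM in R9del and 1.63 and 6.22 CPM in R9wt, so its order was reversed there at D5. The lipase gene Lipg stood at 1.51 and 2.65 CPM against 12.7 and 22.2 CPM, with log2 ratios of -3.05 on each day and of -3.23 and -3.83 in space. Cxcl14, a chemokine gene, was at 0.688 and 2.15 CPM against 5.71 and 39.5 CPM, and Tceal3 on the X chromosome at 0.449 and 0.328 CPM against 3.80 and 8.21 CPM. Olfr57, an odorant receptor gene, was at 0.284 and 1.61 CPM against 2.75 and 21.2 CPM. H2-Q7, a class I histocompatibility gene, was at 2.09 and 2.77 CPM against 17.4 and 30.3 CPM.

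**Figure D3:**
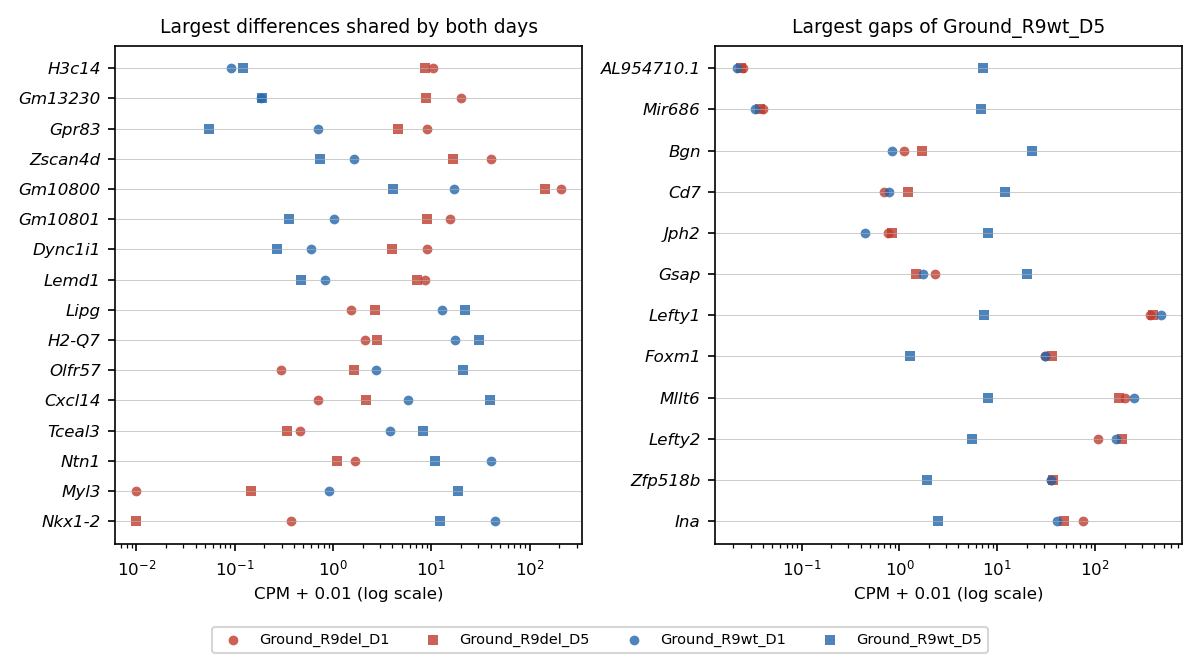
Levels in the 4 ground libraries are given as CPM plus 0.01 on a log axis. On the left are the 16 genes with the largest difference shared by both days. On the right are the 12 with the largest gap to the rest among the genes carried by Ground_R9wt_D5. Red marks R9del, blue R9wt, circles D1 and squares D5, and on the right the blue square stands alone, as for Lefty1 at 7.26 CPM against 368 CPM or more.

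Genes named in the study's running text fell on different sides of these rules. Fgf1, a growth factor gene, was at 4.96 and 3.05 CPM in R9del and 0.477 and 0.257 CPM in R9wt, higher at both days. Neu1, a lysosomal sialidase gene, was at 28.9 and 49.8 CPM against 72.8 and 177 CPM, lower at both days. Mef2d, which encodes a transcription factor, was at 1.30 and 3.54 CPM against 19.5 and 3.60 CPM, with log2 ratios of -3.87 at D1 and -0.02 at D5. In space Mef2d was at 1.66 and 1.41 CPM in R9del and 35.1 and 8.04 CPM in R9wt.

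The list with the largest share of higher genes was that of the state resembling the cleavage stage. Of 11 genes of this list that were tested, 10 were higher at both days and 0 lower, against 5.21% and 5.34% of all genes, with the same counts under TMM and under the other scalings, which were DESeq2's size factors and library size alone. The filter asks for 1 CPM in 1 ground library. Members such as Zfp352 and Usp17la, under 1 CPM in both R9wt libraries on the ground, passed it through R9del alone. Such members could not be counted as lower at both days. The median log2 ratio of the list was 4.83 at D1 and 2.12 at D5 on the ground, and 6.26 and 2.23 in space, while the medians of all genes were -0.058 and -0.007 on the ground. Zscan4c (ENSMUSG00000054272) stood at 67.7 and 30.2 CPM in R9del and 2.61 and 3.09 CPM in R9wt. Zscan4d (ENSMUSG00000090714) was at 40.6 and 16.5 CPM against 1.62 and 0.726 CPM, and Zscan4f (ENSMUSG00000070828) at 88.7 and 38.7 CPM against 3.32 and 4.32 CPM. Each was higher at D1 than at D5 in R9del, and in space R9del the step was larger, from 143 to 16.5 CPM for Zscan4d. Zfp352, a zinc finger gene, was at 7.25 and 1.23 CPM in R9del, at 0.0465 CPM in Ground_R9wt_D1 and at 0 in Ground_R9wt_D5, at least 36.7-fold higher at D5. The Usp17l genes Usp17la, Usp17lc and Usp17le, which encode deubiquitinases, and the predicted genes Gm4340, Gm5662 and Gm8300 complete the higher members. The Usp17l genes, the Zscan4 genes and these predicted genes have near-identical copies, so the share of reads of each copy is uncertain. Eif1a, the most abundant member at 352 and 321 CPM against 256 and 225 CPM, met no rule, and Dux, whose product switches on this state's genes, was under the 1 CPM filter at 0.942 and 0.533 CPM against 0.174 and 0.357 CPM.

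The Zscan4c, Zscan4d and Zscan4f starts lie in a row on chromosome 7, and promoters of Zscan4c and Zscan4d are shown because these members move together and their sequences show how alike the copies are. They come from RefSeq on GRCm38.p6, 250 bases before to 50 after the gene start: Zscan4c at chr7:11005495-11005794 on the plus strand and Zscan4d at chr7:11166099-11166398 on the minus strand. Capitals mark matches on either strand to TATAAA (a core promoter motif), to CCAAT (a motif of Nfy) or to GGGCGG (a motif of Sp proteins).
Zscan4c: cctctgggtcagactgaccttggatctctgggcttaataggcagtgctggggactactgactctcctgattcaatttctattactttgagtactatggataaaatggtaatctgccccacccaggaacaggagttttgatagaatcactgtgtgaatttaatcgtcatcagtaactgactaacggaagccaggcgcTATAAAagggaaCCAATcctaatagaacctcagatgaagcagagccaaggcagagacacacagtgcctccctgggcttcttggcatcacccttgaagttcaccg
Zscan4d: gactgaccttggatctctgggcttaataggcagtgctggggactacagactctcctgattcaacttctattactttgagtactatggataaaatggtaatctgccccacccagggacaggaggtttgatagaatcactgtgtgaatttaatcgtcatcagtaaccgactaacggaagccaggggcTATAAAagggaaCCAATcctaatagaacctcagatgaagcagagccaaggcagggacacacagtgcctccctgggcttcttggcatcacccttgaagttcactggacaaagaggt
Over 289 aligned bases 281 (97.2%) are identical, and between Zscan4c and Zscan4f 275 of 277 are (99.3%). Each of the 3 promoters holds 1 TATAAA and 1 CCAAT, which start at positions 197 and 209 of the Zscan4c window, and 0 GGGCGG. Of 32851 promoters of this length 13.6% hold TATAAA, 37.4% hold CCAAT and 35.7% hold GGGCGG, and a match is a description of letters only.

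Runs of at least 3 neighbouring tested genes in the same class, a rule chosen after seeing the data, held 58 higher genes in 16 runs and 58 lower genes in 18 runs. Among the higher runs, the one with the highest levels lies at mm9 chr14:99433763-100549015, and its 6 genes are Mzt1, Bora, Dis3, Pibf1, Klf5 and Klf12. Mzt1, a subunit of the complex that nucleates microtubules, stood at 830 and 644 CPM in R9del and 147 and 163 CPM in R9wt. Bora, an activator of Aurora A, was at 551 and 592 CPM against 84.5 and 75.0 CPM. Dis3, the nuclease of the exosome, was at 858 and 579 CPM against 113 and 70.9 CPM, with log2 ratios of 2.92 and 3.03. Pibf1, a centrosome gene, was at 121 and 132 CPM against 10.5 and 15.6 CPM, and in these 4 genes the R9del libraries lay above the R9wt libraries in space too. The medians of the run were 2.60 and 2.60 on the ground and 2.20 and 1.48 in space on the log2 scale. Mzt1 and Bora start next to each other and are read in opposite directions, so the segment between their starts is shown, from mm9 chr14:99445356-99445645 on the plus strand, 290 bases with 72.4% GC, with capitals for the same motifs.
Mzt1 to Bora: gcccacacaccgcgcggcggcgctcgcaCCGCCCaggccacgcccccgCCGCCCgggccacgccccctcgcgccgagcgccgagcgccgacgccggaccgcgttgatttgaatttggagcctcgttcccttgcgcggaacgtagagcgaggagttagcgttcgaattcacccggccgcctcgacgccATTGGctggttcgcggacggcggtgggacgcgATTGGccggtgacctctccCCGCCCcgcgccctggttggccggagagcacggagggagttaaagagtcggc
It holds 3 GGGCGG and 2 CCAAT, all on the minus strand, and 0 TATAAA, and the genes on both of its sides were higher in R9del.

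Farther along chromosome 14 lay runs in the opposite direction, named after their values were seen. Gpc6, Tgds and Gpr180 (chr14:117324519-118563454) had medians of -1.18 and -1.24, and Ipo5, Farp1, B930095G15Rik and Stk24 (chr14:121310416-121778556) had medians of -1.59 and -1.74. Ipo5, an importin gene, was at 194 and 169 CPM in R9del and 554 and 463 CPM in R9wt on the ground, and at 259 and 184 CPM against 727 and 583 CPM in space. Genes of the X chromosome were lower at both days in 56 of 565 cases (9.91%), against 5.34% of all annotated genes, and 5 of the runs of lower genes lie there. Mageh1 on the X chromosome was at 12.2 and 12.8 CPM against 102 and 46.0 CPM, and Pdha1, a subunit of pyruvate dehydrogenase, at 207 and 193 CPM against 495 and 431 CPM. Chromosome 11 had 84 of 1291 genes higher at both days (6.51%), against 4.23% of all annotated genes. Etaa1, Polm and Xbp1, higher members of lists given below, are among these genes. Grb10, another list member on this chromosome, was lower at both days. The part of position in these values was not tested. Among the higher runs, H3c14, H4c14 and H2bc18 lie side by side on chromosome 3, and Col6a6, Col6a5 and Col6a4, collagen genes, on chromosome 9.

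Histocompatibility genes formed a run of the lower class, named as a run after its values were seen. H2-Q4, H2-Q8, H2-Q6 and H2-Q7 (chr17:35516562-35580714) had median log2 ratios of -2.87 and -3.53 on the ground and -2.49 and -1.32 in space. Of the 26 tested genes of antigen presentation and immune signalling, 6 were lower at both days (5 with library size alone) and 1 was higher, 2 were carried above and 3 below, while 5.34% of all genes were lower, 5.21% higher, 4.14% carried above and 5.47% below. The medians were -0.71 and -0.95 on the ground and 0.04 and -0.45 in space. H2-K1, the most abundant, was at 46.5 and 58.8 CPM against 166 and 209 CPM, and H2-Ab1, a class II gene, at 1.84 and 4.18 CPM against 29.7 and 22.2 CPM. B2m, the light chain of class I molecules, was carried above at 7.86 and 9.24 CPM against 10.3 and 56.4 CPM. The heavy chain gene was thus lower at both days, while the light chain gene passed the 2-fold rule at D5 alone. Because genes in the H2-Q row are similar in sequence, reads could have been assigned among them.

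Cholesterol synthesis was the list with the most lower members. Of 22 genes 7 were lower at both days (6 with library size alone), 0 were higher, 2 were carried above (1 with library size alone) and 0 below, while 5.34% of all genes were lower, 5.21% higher, 4.14% carried above and 5.47% below. Its medians were -0.94 and -1.28 on the ground and -0.81 and -0.01 in space. Insig1, a sterol sensor, was at 55.2 and 65.9 CPM in R9del and 185 and 404 CPM in R9wt. Cyp51, a demethylase of the pathway, was at 87.8 and 101 CPM against 247 and 490 CPM, and Fdps, the most abundant member, at 219 and 261 CPM against 519 and 661 CPM. By the rule of their class, all these had R9del below R9wt at each day on the ground. Sqle, the epoxidase, was at 112 and 152 CPM against 336 and 456 CPM, and at 120 and 206 CPM against 186 and 250 CPM in space. In space Fdps was at 121 and 281 CPM in R9del and 223 and 210 CPM in R9wt, so its order was reversed there at D5. Insig1 and Cyp51 were lower in R9del on both space days, with log2 ratios of only -0.07 and -0.14 at D5. The summed level of the list was 1879 and 2123 CPM in R9del and 3796 and 5606 CPM in R9wt. Near this pathway, the fatty acid desaturase genes Scd1, Scd2 and Scd3 form a run of lower genes on chromosome 19. The run was chosen after its values were seen, and its space medians were -1.93 and -0.01. Scd2 was at 213 and 178 CPM against 498 and 544 CPM on the ground, and at 132 and 258 CPM against 246 and 223 CPM in space.

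Imprinted genes held higher and lower members. Of 23 tested 6 were higher at both days (7 with both other scalings), 2 were lower, 2 were carried above and 2 below (1 with those scalings), with medians of 0.69 and 0.08 on the ground and 1.00 and -0.33 in space. The shares over all genes are 5.21%, 5.34%, 4.14% and 5.47% in that order, and 2 of 23 genes is a small count beside each of the last 3. Magel2, a ubiquitin ligase regulator, was at 2.12 and 0.601 CPM in R9del and 0.489 and 0.101 CPM in R9wt. Peg10, a gene derived from a retrotransposon, was at 527 and 602 CPM in R9del and 136 and 131 CPM in R9wt. Mest, a hydrolase gene, was at 549 and 227 CPM against 164 and 63.1 CPM, and Grb10, an adaptor that restrains growth signals, at 13.6 and 9.92 CPM against 114 and 40.9 CPM. Dlk1 was the other lower member, at 3.69 and 1.34 CPM against 8.54 and 15.8 CPM, and Impact was the most abundant, at 975 and 693 CPM against 838 and 699 CPM.

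Few genes of the checkpoint and its clamp passed, and the only lower one was Rad9a, the gene that the genotype label names. Of 19 genes of the clamp and the Atr pathway, Rad9a was lower at both days and Etaa1 higher, against 5.34% and 5.21% of all genes, with 0 carried either way, and the medians were -0.12 and 0.25. Etaa1, an activator of Atr that works beside Topbp1, was at 66.0 and 52.5 CPM in R9del and 32.0 and 8.29 CPM in R9wt. Levels of the following members, picked for their role after the values were seen, passed no rule. Hus1 was at 24.6 and 31.4 CPM against 27.0 and 16.2 CPM, and Rad1 at 76.7 and 50.5 CPM against 87.9 and 65.4 CPM. Rad9b, the paralog of Rad9a, was at 25.9 and 27.6 CPM against 28.1 and 16.5 CPM. Rad1 was thus lower in R9del on each day, by less than 2-fold, while Hus1 and Rad9b were lower at D1 and higher at D5. Topbp1 was at 104 and 106 CPM against 127 and 146 CPM, Atr at 39.0 and 39.6 CPM against 36.2 and 38.3 CPM, and Chek1 at 31.1 and 22.4 CPM against 27.7 and 30.1 CPM.

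DNA repair lists hold between 9 and 29 tested genes, and their counts stand beside 5.21% of all genes higher, 5.34% lower, 4.14% carried above and 5.47% carried below. Polm, a polymerase of end joining, was the only one of 15 in its list to be higher (2 with both other scalings), at 22.5 and 22.5 CPM against 10.8 and 7.36 CPM. Nucleotide excision repair (27 genes), base excision repair (21), mismatch repair (9) and homologous recombination with the Fanconi genes (29) had 0 higher and 0 lower. Those 4 lists had 1, 1, 1 and 2 genes carried below, which were Rpa1, Fen1, Mlh3, and Brca2 with Fancf. Fen1, a flap nuclease gene, was at 57.2 and 67.3 CPM in R9del and 64.8 and 17.4 CPM in R9wt, but 84.19% of its exon length overlaps another gene. Brca2, a gene of homologous recombination, was at 69.2 and 60.0 CPM against 61.4 and 25 CPM, low in Ground_R9wt_D5 alone. Among 26 targets of p53, 1 was lower at both days (0 with library size alone), Sesn1, at 14.4 and 16.6 CPM against 30.4 and 44.7 CPM. The p53 targets Cdkn1a and Fas were carried above, and Cdkn1a, an inhibitor of cyclin-dependent kinases, was at 207 and 311 CPM against 229 and 1040 CPM.

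**Figure D4:**
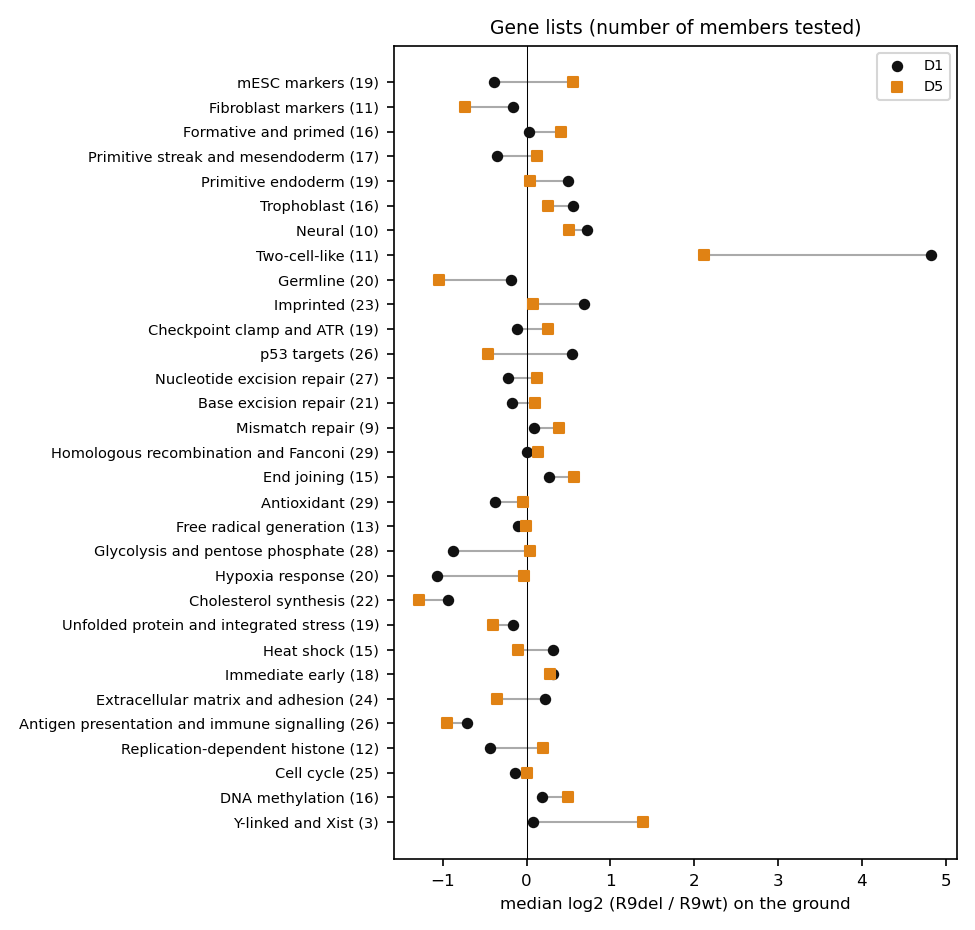
For each of 31 gene lists, with the number of members tested in brackets, the median log2 ratio of R9del to R9wt on the ground at D1 (black circles) and D5 (orange squares). The list of the state resembling the cleavage stage lies at 4.83 and 2.12 and cholesterol synthesis at -0.94 and -1.28.

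The genes carried by Ground_R9wt_D5 had a median level of 6.53 CPM where that library lay above and 9.86 CPM where it lay below. The genes above took 5.99% of the reads in Ground_R9wt_D5 and 1.99% to 2.42% in the other 3 ground libraries, and those below took 1.32% against 4.60% to 5.82%. Lefty1 (ENSMUSG00000038793; chr1:182865153-182868531, plus strand), a secreted antagonist of Nodal, was at 368 and 387 CPM in R9del and at 469 and 7.26 CPM in R9wt. Its neighbour Lefty2 (chr1:182823239-182829234) was at 106 and 187 CPM against 162 and 5.51 CPM, and Nodal itself was carried below too, at 66.9 and 42.1 CPM against 36.4 and 9.28 CPM. In space the lowest level of Lefty1 belonged to R9wt at D1, 12.8 CPM, and R9wt at D5 held 152 CPM, with 111 and 296 CPM in R9del. The low level thus fell on different days of R9wt at the 2 locations.

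Other large gaps below were those of Foxm1, a transcription factor of mitotic genes, at 30.8 and 35.9 CPM against 30.9 and 1.28 CPM, and Mllt6 at 202 and 176 CPM against 248 and 7.99 CPM. Zfp518b was at 35.2 and 37.4 CPM against 35.2 and 1.90 CPM, and Ina, a neurofilament gene, at 74.9 and 48.5 CPM against 40.9 and 2.49 CPM. By the rule that chose them, in all 4 genes the 2 R9del libraries and Ground_R9wt_D1 lay within 2-fold of each other. Above the rest stood Bgn, a proteoglycan gene on the X chromosome, at 1.11 and 1.68 CPM against 0.838 and 22.8 CPM, and in space at 2.79 and 3.39 CPM against 1.51 and 27.1 CPM, so R9wt at D5 was the highest library at both locations. Gsap was at 2.27 and 1.45 CPM against 1.71 and 20.3 CPM, Cd7 at 0.688 and 1.20 CPM against 0.779 and 12.0 CPM, and Jph2, which joins membranes in muscle, at 0.748 and 0.820 CPM against 0.430 and 8.00 CPM. The entries with the widest gap were AL954710.1, with 1 count in each of the other 3 ground libraries and 641 in Ground_R9wt_D5, and Mir686, with 2 counts in each and 610. In space AL954710.1 was at 5.42 and 0.0168 CPM in R9del and 5.64 and 0.0164 CPM in R9wt, so both D1 libraries held it there. The ground R9del to R9wt ratios of AL954710.1 and Mir686 at D5 were 0.00191 (95.0% counting interval 4.83e-05 to 0.0107) and 0.00401 (0.000485 to 0.0146). The whole exon length of both entries overlaps other genes, so the origin of their reads is uncertain.

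Metabolic, stress and DNA methylation lists held both carried genes and genes that agree at both days, beside 5.21% of all genes higher, 5.34% lower, 4.14% carried above and 5.47% carried below. Most of the counts of 1 lie near those shares. Of 28 genes of glycolysis and the pentose phosphate path, 3 were carried below (4 with library size alone) and 3 were lower at both days (1 with library size alone), with medians of -0.88 and 0.04. Slc2a1, the glucose transporter, was carried below at 887 and 846 CPM against 1317 and 141 CPM, and Pdk1, which restrains pyruvate dehydrogenase, at 187 and 243 CPM against 314 and 54.0 CPM. Ldhb, the lactate dehydrogenase subunit, was lower at both days, at 130 and 454 CPM against 770 and 2420 CPM, and Pkm was the most abundant, at 3986 and 4863 CPM against 6556 and 2510 CPM. Of 20 hypoxia response genes Slc16a3, a lactate exporter, was carried below at 463 and 560 CPM against 658 and 112 CPM (2 with library size alone) and Vegfa was lower at both days (0 with library size alone). The hypoxia medians were -1.07 and -0.03, where the D5 median turned to 0.10 with library size alone. Tet1 and Tet2, which oxidize methylated cytosine, were the carried members of 16 DNA methylation genes (3 with library size alone), with Tet1 at 499 and 403 CPM against 429 and 83.9 CPM and Tet2 at 71.1 and 68.2 CPM against 48.6 and 10.3 CPM. Ddit3, the stress transcription factor, was carried above at 6.31 and 11.5 CPM against 7.64 and 72.3 CPM, 1 of 19 in its list, beside Xbp1 as 1 higher. Hsp90aa1, the inducible chaperone, was carried above at 2312 and 2846 CPM against 2643 and 6433 CPM, 1 of 15 heat shock genes, beside Hspb8 as 1 lower.

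Mitochondrial transcripts stood out by position. Of 32 tested genes of the mitochondrial genome, 12 (37.5%) were carried below, against 5.41% of all annotated genes, and 3 (9.38%) were higher at both days, against 4.23%. Members of the mitochondrial run, picked after the values were seen, were mt-Co3 at 2312 and 1605 CPM against 1876 and 415 CPM and mt-Nd4 at 1452 and 876 CPM against 1292 and 400 CPM. The carried genes below held 9 runs of neighbours with 29 genes in all, and the genes above held 5 runs with 15 genes.

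As a check of the cell type, 19 mESC markers were all tested, with 1 higher at both days, 1 lower, 1 carried above and 4 below, and medians of -0.39 and 0.55. Over all genes the shares are 5.21%, 5.34%, 4.14% and 5.47% in that order. Their summed level was 8140 and 8493 CPM in R9del and 10677 and 9325 CPM in R9wt, with 0 markers at 0. Pou5f1 was at 1578 and 1449 CPM against 1804 and 988 CPM, Sox2 at 194 and 228 CPM against 254 and 151 CPM, and Nanog at 273 and 340 CPM against 404 and 236 CPM. Dppa5a, the most abundant, was lower at both days, at 1080 and 1461 CPM against 2686 and 4602 CPM, and Klf5 was higher, at 657 and 664 CPM against 275 and 177 CPM. Carried below were Klf2, L1td1, Tdgf1 and Zfp42, with Tdgf1, a co-receptor of Nodal, at 589 and 626 CPM against 1129 and 202 CPM. Tfcp2l1 was carried above, at 242 and 340 CPM against 315 and 764 CPM. Of 18 fibroblast markers, which feeder cells would bring, 11 passed the filter, and 2 were lower at both days (1 with library size alone), 1 carried above and 1 below (0 with DESeq2's size factors). Their summed level was 172 and 119 CPM in R9del and 153 and 144 CPM in R9wt, the most abundant was Vim at 117 and 59.5 CPM against 68.2 and 13.1 CPM, and Dcn and Lum were at 0 in all ground libraries. The part of these markers in the results was not tested.

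Space libraries share no library with the ground comparison, so they give another reading of the R9del to R9wt ratio for genes that agree at both days. Both locations compare cells of the same genotype labels. The deletion and any other difference between the cells so labelled cannot be told apart at either location. In space 912 genes (5.49%) were higher at both days and 891 (5.36%) lower. Of the 865 genes higher on the ground 418 were also higher at both days in space, 48.3% of the ground list and 45.8% of the space list, and 4 were lower. Of the 887 lower ones 340 were lower in space, 38.3% and 38.2% of the lists, and 3 were higher. In sign alone, 705 of the 865 (81.5%) were above 0 at both space days, as were 33.3% of all genes, and 679 of the 887 (76.6%) were below 0, as were 31.8% of all genes. The median log2 ratio of the higher genes was 1.76 and 2.10 on the ground and 2.14 and 1.21 in space, and that of the lower genes -1.56 and -1.75 against -1.42 and -0.99. The location by genotype interaction in edgeR's quasi-likelihood test had an unadjusted p under 0.05 in 700 of 22659 genes (3.09%) and in 58 of the 865 and 69 of the 887, which were chosen on ground values that this test also uses. After Benjamini-Hochberg adjustment that edgeR test passed 0 genes (0%), and DESeq2's Wald test passed 31.

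**Figure D5:**
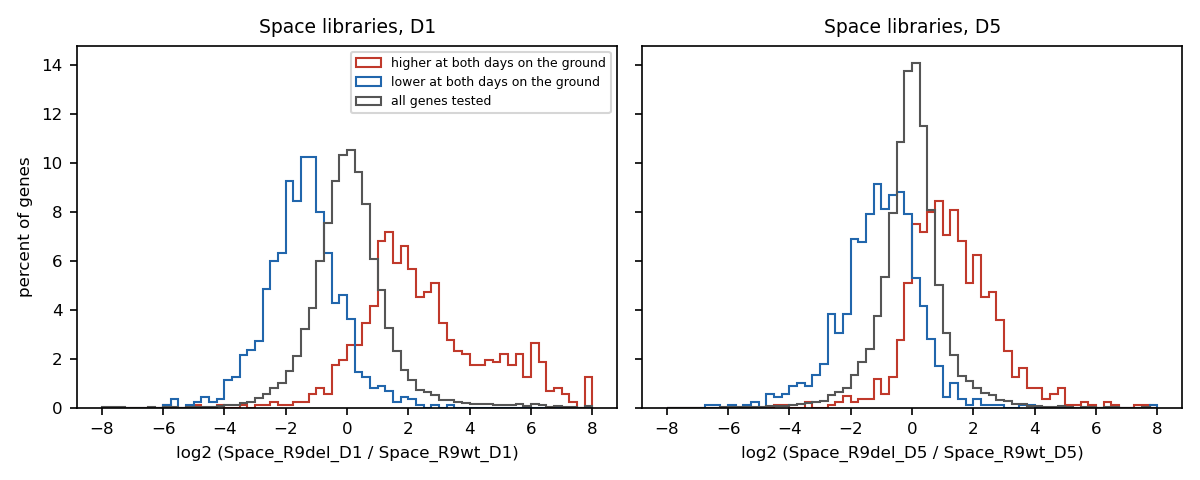
Histograms of the log2 ratio of R9del to R9wt in space at D1 (left) and D5 (right), as percent of genes, for genes higher (red) or lower (blue) at both days on the ground and for all genes tested (grey), with values beyond 8 placed in the outermost bar. The red medians are 2.14 and 1.21 and the blue ones -1.42 and -0.99.

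Genes carried by Ground_R9wt_D5 were looked for in the same way. Of the 688 above, 44 (6.40%) were carried above by Space_R9wt_D5, as were 1.68% of all genes, and 67 (9.74%) by Space_R9wt_D1, as were 2.98% of all. Of the 908 below, 22 (2.42%) were carried below by Space_R9wt_D5 (1.52% of all) and 102 (11.2%) by Space_R9wt_D1 (3.47% of all). The R9del space libraries carried at most 4 genes of either class, between 0.110% and 0.441% of a class, where they carried 0.427% to 0.825% of all genes. The median log2 difference from D1 to D5 in R9wt was 1.61 on the ground and -0.18 in space for the genes above, and -1.66 and 0.33 for those below. In space R9wt, 130 of the genes above (18.9%) were at least 2-fold higher at D5 than at D1 and 169 (24.6%) at least 2-fold lower. Of the genes below 194 (21.4%) were higher and 97 (10.7%) lower, and of all genes tested 14.2% and 11.5%. The medians in space R9wt were thus of the opposite sign. On the ground the rule itself sets a difference of at least 2-fold between the R9wt libraries, so the sizes cannot be compared. Whether the ground difference comes from the day, the seeding number or the 1 culture cannot be told apart.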

How the data were processed

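Per the labels and the study's methods, the authors sequenced TRIzol-extracted mRNA as paired-end reads, aligned them to mm9 with TopHat2 2.0.9, tested with edgeR and deposited raw read counts for 50686 Ensembl identifiers, 33013 of which had a count in a ground library. The counting program, annotation and strand setting are not given there. TMM factors and tests were computed with edgeR 4.0.16 and DESeq2 1.42.0 in R 4.3.3, and tables with Python 3.11.15, numpy 2.4.6, pandas 2.3.3 and scipy 1.17.1. Log2 ratios used a prior count of 2. The quasi-likelihood fit kept genes by filterByExpr with a minimum count of 10. Deviations from the genotype means correlated between libraries of the same day at 0.228 over 21333 genes, and day was the block. An mm9 annotation gave positions for 64.6% of the identifiers, which hold 96.9% of the ground reads. Genes were named by rule: Rad9a and the 8 each way with the largest shared difference (5 CPM or more in the higher genotype). Also named were the 6 each way with the largest gap among the genes carried by Ground_R9wt_D5 (5 CPM or more). The rule added the most abundant and up to 3 agreeing members of each list, the mESC markers, and Mef2d, Fgf1 and Neu1. All other genes given with values are list or run members chosen after their values were seen. The members and the 31 lists, written from general knowledge, were chosen with earlier results of these data known, and some list members are not reported here. Scripts were tested on simulated data.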

Additional observations from a re-analysis of the deposited data

How the results depend on the processing

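Of the alternatives, 71 left a main value on the same side of its threshold or within 1.5 times of the main count, 27 moved a count beyond that, 2 brought Rad9a past an adjusted p of 0.05 (DESeq2's Wald test at -1.77 and edgeR's exact test at -1.79) and 0 reversed the direction of a count's own class or of Rad9a. The balance of higher to lower genes at both days did turn, from 865 and 887 to 1044 and 699 with library size alone to 900 and 840 with DESeq2's size factors and to 884 and 854 with TMM over the 4 ground libraries, so each other scaling tried turned it. Without a filter on low counts the genes higher and lower at both days became 2280 and 1555 and those carried above and below 1471 and 1474, because more genes were tested. With a mean of at least 10 CPM they were 207, 272, 283 and 451, because fewer were. At a fold of at least 4 they were 247, 144, 100 and 220, by the stricter rule. With each ground library left out in turn, which was chosen after seeing the data for this result, the higher genes numbered 720 to 2178 and the lower 692 to 2044. In each case 1 day had no pair, so the rule of the both-day classes changed along with the library. The edgeR fits without a library also lost the day block, since no residual degree of freedom would be left with it. Their counts, given next, change library and model together and cannot be compared with the main counts. The counts by fold and unadjusted p ranged from 393 to 2939 higher and from 314 to 2274 lower, and those by adjusted p from 0 to 120 and from 0 to 92, with the lone library assumed to vary like the others, and Rad9a from -1.95 to -1.65. At an adjusted p under 0.05 DESeq2's Wald test gave 834 higher and 643 lower genes, edgeR's exact test 369 and 233, and the Wald test of the interaction 31, where edgeR's quasi-likelihood test gave 0 in each. The cause was not tested. Without the replicate block of day the counts by fold and unadjusted p were 991 and 1056, those by adjusted p 0 and 0, and Rad9a was at -1.79 in edgeR's quasi-likelihood test. Library size alone moved the median log2 ratio of all genes from -0.058 to 0.056 at D1 and from -0.007 to 0.120 at D5. Of the 28 genes named for the largest differences, 28 were in their class with DESeq2's size factors and 27 with library size alone.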

Other observations

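Lists of other lineages held members of several classes, beside 5.21% of all genes higher, 5.34% lower, 4.14% carried above and 5.47% below. Of 17 genes of the primitive streak and mesendoderm, Evx1 and Hand1 were higher at both days (3 with library size alone), Gsc, T and Tbx6 lower, Mesp2 carried above (0 with library size alone) and 3 carried below, with medians of -0.35 and 0.12. Hand1, a transcription factor gene, was at 16.8 and 63.3 CPM in R9del and 2.11 and 14.4 CPM in R9wt, higher at D5 in both genotypes. Of 19 primitive endoderm genes Hnf4a and Sox7 were higher (3 with both other scalings) and Amn lower, and Sox7 was at 9.11 and 7.04 CPM against 1.24 and 0.324 CPM. Of 16 trophoblast genes Hand1 was higher (2 with library size alone) and Ascl2 and Esx1 lower (1 with both other scalings), and Krt18, a keratin gene, was at 103 and 407 CPM against 80.8 and 1398 CPM. Of 10 neural genes Neurod1, Pax6 and Tubb3 were higher, Stmn2 lower and Ncam1 carried below. Tubb3, a tubulin gene, was at 82.3 and 79.6 CPM against 26.8 and 11.2 CPM, and Stmn2, a regulator of microtubules, at 49.2 and 34.7 CPM against 259 and 163 CPM. The 16 formative genes had medians of 0.03 and 0.41. Of 20 germline genes Brdt, Mael and Sycp3 were lower, Hormad1 higher and 4 carried above, with Mael, a piRNA pathway gene, at 13.5 and 11.6 CPM against 36.1 and 50.5 CPM.

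Signalling and growth lists follow, and the shares over all genes are again 5.21% higher, 5.34% lower, 4.14% carried above and 5.47% below. Of 18 immediate early genes Myc, Dusp6 and Egr2 were higher at both days, 0 lower, 2 carried above and 2 below. Myc was at 69.5 and 29.8 CPM in R9del and 13.0 and 2.43 CPM in R9wt, and Dusp6, a phosphatase that acts on Erk, at 178 and 93.9 CPM against 66.9 and 11.3 CPM. Of 25 cell cycle genes Cdkn2a was lower, Cdkn1a and Cdkn1c carried above and Ccnd1 and Ccne1 below, while with library size alone 2 were higher, 0 lower and 0 carried below. Of 24 matrix and adhesion genes Fn1, fibronectin, was lower at 195 and 405 CPM against 891 and 922 CPM, and Ccn1 was carried above. Of 12 tested genes of the histone list, which does not hold H3c14 or H2bc18, H4c14 was higher and H2bc4 carried below. Of 29 antioxidant genes Nqo1 and Srxn1 were higher and Hmox1 carried below, with Srxn1 at 89.9 and 96.4 CPM against 39.0 and 19.2 CPM and medians of -0.38 and -0.04 (the D5 median was 0.08 with library size alone). Of 13 genes that generate free radicals Cybb was higher, Cyba and Maob lower and Duox1 and Noxo1 carried below, and Cyba, an oxidase subunit, was at 13.0 and 29.9 CPM against 38.1 and 159 CPM. Of 10 Y-linked genes and X inactivation transcripts 3 were tested. The Y-linked gene Eif2s3y was at 2.00 and 3.80 CPM in R9del and at 0 and 0.101 CPM in R9wt, at least 57.4-fold higher at D1, while Sry, Usp9y, Zfy1 and Zfy2 were at 0 in all ground libraries. Tsix was carried below at 40.9 and 44.1 CPM against 38.9 and 16.8 CPM, and Xist was at 7.39 and 5.34 CPM against 16.5 and 3.73 CPM.

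With 1 library for each genotype and day, a fold between 2 libraries has no replicate error. The quasi-likelihood fit had a biological coefficient of variation of 0.403 and 1 residual degree of freedom. Ground_R9wt_D5 is the only D5 control, so what it carries cannot be split between its genotype, day, seeding number and culture. Of the identifiers 64.6% had a position, so runs and shares by chromosome leave out the rest, and 11 of 649 list entries had no match. Counts of overlapped or near-identical genes depend on a counting step that is not known here. The proteins and the deletion's structure were not analysed here.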
